A study of Mus musculus with 965 samples.

Results

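3A38 is a clone of E14 mouse embryonic stem cells (ESCs) in which both copies of Dnmt3a were disrupted (genotype 3AKO), and its cells were followed through embryoid body (EB) differentiation at days 3, 6 and 8. Its members were the cells whose columns in the count table carried the prefix of 1 of the 3 plates C291 (day 3), C303 (day 6) and C307 (day 8), all from batch 1. Of the 965 cells of the series, they were 70 at day 3, 72 at day 6 and 72 at day 8. EBs are aggregates that ESCs form in suspension after leukemia inhibitory factor is withdrawn. All clones were grown in medium with serum and knockout serum replacement, EBs of a clone and day were pooled and dissociated, and live cells were sorted 1 to a well. Smart-seq2, which copies full-length polyadenylated RNA, was used without molecular identifiers, so that PCR copies count as reads. The other clones were 3A2 (also 3AKO, batch 1, days 3 and 6), 3B126 and 3B77 (both 3BKO, Dnmt3b disrupted) and wild type (WT). The sources used here do not name the part of Dnmt3a that was deleted in 3A38.

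Each day of 3A38 was 1 plate from 1 pool of EBs. Cells of a plate are not replicates of a day, so day, plate and pool cannot be told apart, and differences between days are given below as levels with no test unless edgeR is named. Intervals beside a share of cells are exact Clopper-Pearson 95% intervals, and those beside a CPM value exact Poisson 95% intervals. They are given for the main genes and cover counting error only.

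Dnmt3a and Dnmt3b are the de novo DNA methyltransferases, which place new methyl marks on CpG sites as the embryo implants, and Dnmt1 copies those marks at replication. In EBs, cells resembling the epiblast give way to derivatives of the germ layers. Primitive red cells and endothelium arise early and close together from Kdr-expressing mesoderm, while neurons and connective tissue mesenchyme appear later.

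The 3 plates held 36184002, 29120011 and 44529830 reads at days 3, 6 and 8, with medians of 330457, 260796 and 317320 reads per cell. The median number of genes detected in a cell, after each cell was thinned to 50000 reads, was 4892 at day 3, 4506 at day 6 and 2787 at day 8. Mitochondrial reads made up a median of 22.9%, 10.8% and 15.3% of a cell at days 3, 6 and 8. The day 8 plate therefore stands apart in gene detection and the day 6 plate in mitochondrial share, and these values bear on every comparison below. Cells with at least 3 reads of Y-linked genes were 8.57%, 4.17% and 4.17% of 3A38 at days 3, 6 and 8, against 42% and 32.5% of 3A2 at days 3 and 6. Among WT cells the same share was 31.1%, 53.7% and 3.37% at days 3, 6 and 8. In 3B77 it was 0, 0 and 27.5%. The day 8 plates of WT and 3B77 thus go against the earlier plates of their labels, and are called the plates in doubt below. Without them, 3B126 is the only other day 8 sum.

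Levels are CPM, the summed reads of a gene on a plate scaled to a common library total with TMM, whose factors for 3A38 were 1.01, 1.43 and 0.814 at days 3, 6 and 8. A share of cells is the percentage with at least 1 read of a gene after thinning. Reads per 50000 are a single cell's thinned reads. A gene is called higher or lower by size where log2(CPM + 5) differs by at least 1 between 2 plates. This scale understates the difference of low genes. Summed reads cannot tell fewer cells of a type apart from less RNA in each.

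Dnmt3a (chr12:3806007-3914443, plus strand, GRCm38) stood at 12.9 CPM (11.8 to 14.1) at day 3, 2.18 CPM (1.75 to 2.68) at day 6 and 1.10 CPM (0.789 to 1.5) at day 8 in 3A38. At day 3 the level was 22.4 CPM in 3A2, 224 CPM in 3B126, 133 CPM in 3B77 and 166 CPM in WT, so both 3AKO clones lay below the other lines. Reads were found in 19 of 70 cells at day 3 (27.1%, 17.2 to 39.1%), 9 of 72 at day 6 (12.5%, 5.88 to 22.4%) and 1 of 72 at day 8 (1.39%, 0.0352 to 7.5%). Dnmt3b was 283 CPM at day 3, with reads in all 70 cells, and 8.29 and 0.801 CPM at days 6 and 8. Dnmt1 was 87, 134.9 and 37.8 CPM at the 3 days. Dnmt3l, a catalytically inactive partner of the de novo enzymes, was at 2.25, 0 and 0.0552 CPM. The oxidases that act on methylated cytosine went different ways. Tet1 was 250.5, 61.4 and 51.3 CPM at days 3, 6 and 8, whereas Tet3 was 25.8, 47.9 and 755 CPM.

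Clustering of the 3A38 cells alone gave 6 clusters that nearly followed the days. Each was named only where most of a fixed marker list was at least 2-fold higher than in the other cells. With 1 plate a day, a cluster made mostly of 1 day may be that plate. Clusters 2 and 3 were epiblast-like, with 10 of 10 epiblast markers at least 2-fold higher than in the other cells, and held 66 of the 70 day 3 cells (35 and 31). Cluster 0 held 47 of 72 day 6 cells and stayed unnamed, being led by Aldh1a2, Crabp1, Hoxb1 and Crabp2. Cluster 4, with 24 day 6 cells, was blood-like but also carried all 15 endothelium markers. Day 8 was split between cluster 1, with 41 neuron-like cells, and cluster 5, with 21 mesenchyme-like cells. With 15 principal components in place of the number used, 38 of the 41 and 20 of the 21 fell into a single cluster of 58 cells, so this split depends on that setting. The neuron-like cluster was mixed. Its cells held 0 to 1719 reads per 50000 over the 16 neuron genes (median 164), and 15 of the 41 lay at or under 47, the highest value of a day 3 cell. Cluster 5 cells held 0 to 9 (median 0). A finer resolution of 1.2 divided cluster 0 into 30 and 22 cells. The 30 were led by Crabp1 and had 7 neural progenitor markers at least 2-fold higher, from a list that itself holds Crabp1 and Crabp2. The 22 joined 8 of cluster 4 in a set with all 15 endothelium markers and 8 of 16 mesenchyme markers at least 2-fold higher.

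**Figure D1:**
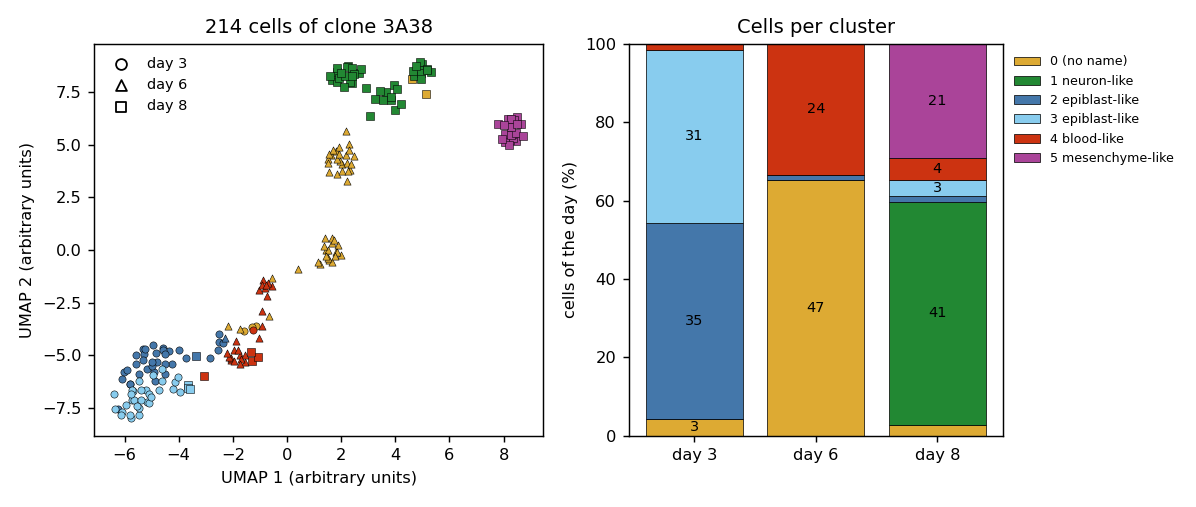
Cells of 3A38 on a UMAP (axes in arbitrary units), coloured by cluster and with the day as marker shape. Beside it, stacked bars give the percentage of each day's cells in each cluster, with cell numbers printed on the larger parts. Clusters 2 and 3 hold 66 day 3 cells, clusters 0 and 4 hold 71 day 6 cells, and clusters 1 and 5 hold 62 day 8 cells and no others.

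A few cells fell outside the clusters of their day. At day 8, 8 cells lay in clusters 2, 3 and 4, and all 8 held reads of Nanog or L1td1 while none held Hbb-bh1. Another 2 day 8 cells lay in cluster 0, of which 1 held Nanog and neither held L1td1. The 1 day 6 cell in cluster 2 held L1td1 and Crabp1. At day 3, 4 cells lay in clusters 0 and 4. These 4 had 28.9 to 46.5% mitochondrial reads, and all 4 held L1td1, so they kept an epiblast gene in spite of their position.

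The first comparison asked what 3A38 cells gained and lost between day 3 and day 6. At day 6 the embryonic globins, endothelial genes and blood regulators were higher by size, together with a set of genes tied to retinoic acid, and genes of the pluripotent epiblast were lower. By size, 1461 of 24083 genes (6.07%) were higher at day 6 and 1874 (7.78%) were lower. With scaling by library totals only, the numbers became 2969 higher and 1221 lower, so that 70.9% of the calls were higher rather than 43.8%. Fitted with edgeR across the clones, with 3A38 assumed to vary as the others do, no gene passed an adjusted p of 0.05 (lowest 0.957, edgeR), while 882 genes had an unadjusted p under 0.05 and DESeq2 called 314.

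Core pluripotency genes were lower by size at day 6 in 9 of 10 members, with a median difference of -3.66 on the log2(CPM + 5) scale against 0 over all genes. Nanog, a homeodomain factor of the pluripotent state (chr6:122707489-122714633, plus strand), was 0.599 CPM at day 6 against 147 CPM at day 3. It was found in 2 of 72 cells at day 6 (2.78%, 0.338 to 9.68%) and 65 of 70 at day 3 (92.9%, 84.1 to 97.6%), so few day 6 cells held it and most day 3 cells did. L1td1, which encodes an RNA-binding protein of pluripotent cells, was found in 1 of 72 day 6 cells and in 69 of 70 day 3 cells, at 2.23 against 507 CPM. Pou5f1, which encodes Oct4, was 3.76 CPM at day 6 against 58.8 CPM at day 3, and the day 6 reads came from 1 cell. Sox2, which pairs with Oct4 and later marks neural cells, was 12.7 CPM at day 6 against 38.7 CPM at day 3.

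Genes of the primed epiblast were lower in 8 of 13 members (median -2.71). Fgf5, a growth factor of the implanted epiblast, had no reads at day 6 and was found in 37 of 70 cells at day 3 at 60.3 CPM. Lefty1, an inhibitor of Nodal signalling, was 1.32 CPM at day 6 against 175 CPM at day 3. The Nodal list as a whole was lower in 6 of 10 members and higher in 1. Trh, which encodes thyrotropin-releasing hormone, was 14.7 against 782 CPM. The adhesion genes Epcam (7.02 against 166 CPM) and Cdh1 (4.38 against 103 CPM) were lower as well. T, the brachyury gene of the primitive streak, was found in 1 cell at day 6 and in 4 cells at day 3, of which 1 held 72.8% of the reads.

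In the other direction, Crabp1, which encodes a cytoplasmic retinoic acid-binding protein (chr9:54764748-54773110, plus strand), was 1818 CPM at day 6 against 3.18 CPM at day 3. A day 6 cell held 0 to 4409 reads per 50000 (median 4), and a day 3 cell 0 to 3 (median 0), so the upper cells of day 6 lay far above the day 3 range. It was detected in 46 of 72 cells at day 6 (63.9%, 51.7 to 74.9%) and 10 of 70 at day 3 (14.3%, 7.07 to 24.7%). Its relative Crabp2 was 256 against 5.32 CPM. Aldh1a2, the enzyme that makes retinoic acid, was 87.3 CPM against 0, but 13 cells carried it and 1 of them held 52.3% of its reads. Hoxb1, a hindbrain Hox gene that retinoic acid is known to induce, was found in 25 of 72 day 6 cells and no day 3 cell. Over the retinoic acid list, 5 of 11 members were higher and none lower (median 0.90).

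Some genes of mesoderm and of neural tissue were also higher by size. Meis1, a homeodomain partner of Hox proteins, was 82.9 CPM at day 6 against 0 at day 3 (42 of 72 against 0 of 70 cells, upper bound 5.13%). Id3, a target of Bmp signalling, was 617 against 30.9 CPM, and 8 of 12 genes of the Bmp list were higher with none lower. Of the collagen and matrix list 9 of 15 were higher and none lower (median 1.21). Sparc, which encodes a collagen-binding matrix protein, was found in 50 of 72 day 6 cells. Among the neural progenitor list 6 of 15 were higher and 1 lower. Fabp7, a lipid carrier of radial glia, was 109.5 CPM against 4.17 CPM. Pax3 (23 cells) and Pdgfra (19 cells), genes of the dorsal neural tube and of mesenchyme, met in 4 day 6 cells. Pax3 and Zic1 (21 cells), both genes of the dorsal neural tube, met in 16.

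**Figure D2:**
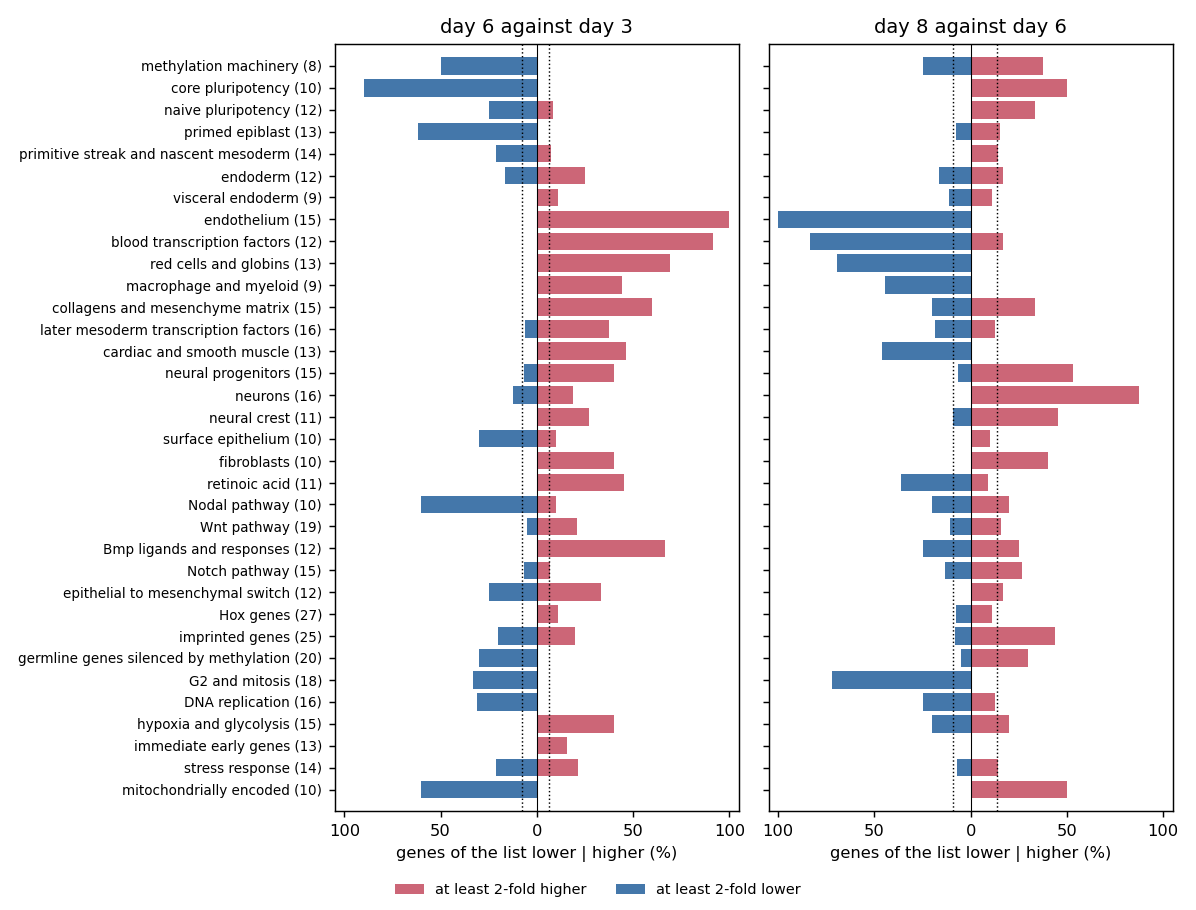
Percentage of the members of each gene list at least 2-fold lower or higher by size on log2(CPM + 5), for day 6 against day 3 and for day 8 against day 6 in 3A38, with dotted lines at the percentage over all genes tested. Endothelium genes are all higher at day 6 and all lower at day 8, and 14 of 16 neuron genes are higher at day 8.

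All 15 endothelium genes were higher by size at day 6 (median 1.87), as were 11 of 12 blood transcription factors (median 2.26) and 9 of 13 red cell and globin genes (median 2.45). Summed over its list, the red cell and globin level was 14905 CPM at day 6 against 24.3 CPM at day 3. Hbb-bh1, an embryonic beta-type globin (chr7:103841637-103843164, minus strand), was 8149 CPM (8121 to 8176) at day 6 against 0 CPM (0 to 0.101) at day 3, and Hba-x, an embryonic alpha-type globin, was 5908 against 0.0823 CPM. Kdr, the receptor for vascular endothelial growth factor (chr5:75932827-75978458, minus strand), was 61.7 CPM at day 6 against 0 at day 3, with reads in 21 of 72 and 0 of 70 cells. These levels came from a minority of the day 6 cells.

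Day 6 cells fell into separate sets by their globin reads. In 12 of 72 cells (16.7%, 8.92 to 27.3%) Hbb-bh1 took 1283 to 14095 reads per 50000, with a median of 3203, or 6.41% of the cell. The next highest cell had 34 reads per 50000. Of the 60 cells below the gap, 12 held at least 1 read, against 0 of 70 cells at day 3 and 1 of 72 at day 8. A cut at 1000 reads was placed in this gap after its values were seen. All 12 cells over it lay in cluster 4. Their median depth of 243380 reads compares with 311892 in the other cluster 4 cells of day 6 and 258514 in the remaining 48.

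Red cell genes were shared within the 12 globin-rich cells. Gata1, the main erythroid GATA factor, was found in 11 of 12, the erythroid zinc-finger factor Klf1 in 10, and Alas2, the first enzyme of red cell haem synthesis, in 9. None of the 12 held reads of Cdh5, Pecam1, Cd34 or Kdr. Membership of cluster 4 depended on the settings. Of its 29 cells, 17 stayed together with thinned cells, 20 with 15 principal components and 28 at a resolution of 0.4. The other 12 cluster 4 cells of day 6, a set that rests on clustering of these same reads, differed in these genes. Kdr was found in 11 of them, Cd34 in 10, Pecam1, a junction protein of endothelium, in 9 and Cdh5, which encodes VE-cadherin, in 8, but Gata1 in 1. Other blood regulators were divided less sharply between the globin-rich cells and the other 12. Nfe2 was found in 11 and 6, Runx1 in 9 and 5, Gfi1b in 8 and 4, Lmo2 in 8 and 4, and Gata2 in 2 and 7. Tal1, a regulator that both blood and endothelium use, was present in 11 of 12 cells of either set. Kit, the stem cell factor receptor, was found in 0 of the 12 globin-rich cells and in 9 of the other 12. Over the 15 endothelium genes, a globin-rich cell held 0 to 3 reads per 50000 (median 1), another cluster 4 cell 3 to 947 (median 205) and a remaining day 6 cell 0 to 218 (median 1.5).

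**Figure D3:**
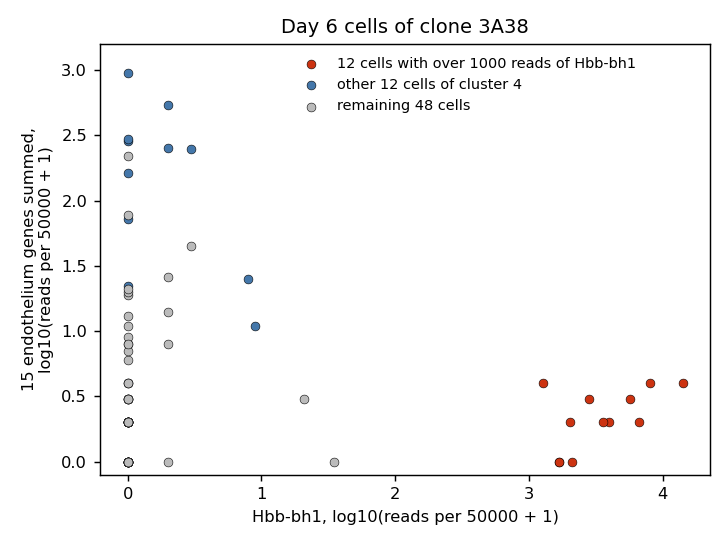
Day 6 cells of 3A38 by Hbb-bh1 reads per 50000 (horizontal axis) and summed reads per 50000 of 15 endothelium genes (vertical axis), both on log axes, with each point 1 cell. The 12 cells with 1283 or more Hbb-bh1 reads hold at most 3 endothelium reads, and the cells rich in endothelium reads hold few globin reads.

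Gata1 binds GATA motifs at many red cell genes, so the promoters of 2 genes detected in most of the globin-rich cells are shown. A window of 250 bases before to 50 after the start was searched for GATAA and its complement TTATC, and 8347 of 32851 such mouse promoters (25.4%) held at least 1 match. Of 25 blood genes, 18 matched a RefSeq promoter and 12 of those held a match. A match is a description of these letters only. The 2 windows (RefSeq, GRCm38.p6, plus strand, chr11:32276350-32276649 for Hba-x and chr8:84901732-84902031 for Klf1) each held 1 match, which is in capitals.
Hba-x: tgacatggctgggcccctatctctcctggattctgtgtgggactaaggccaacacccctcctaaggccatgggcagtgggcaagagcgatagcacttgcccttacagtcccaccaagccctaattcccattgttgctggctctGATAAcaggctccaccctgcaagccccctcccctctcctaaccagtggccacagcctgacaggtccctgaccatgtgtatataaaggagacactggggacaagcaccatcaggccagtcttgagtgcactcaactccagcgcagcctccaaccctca
Klf1: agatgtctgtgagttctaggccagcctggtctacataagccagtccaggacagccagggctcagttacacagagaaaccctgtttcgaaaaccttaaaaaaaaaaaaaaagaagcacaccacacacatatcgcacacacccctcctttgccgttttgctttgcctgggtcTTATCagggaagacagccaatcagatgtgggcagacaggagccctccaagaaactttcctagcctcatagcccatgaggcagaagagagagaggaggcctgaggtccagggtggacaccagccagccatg
The match lay 107 bases before the RefSeq start of Hba-x and 80 bases before that of Klf1. In the annotation used for the gene coordinates above, Hba-x starts at chr11:32276400, so by that start the match lies inside the gene. In the cells, Hba-x was found in all 12 globin-rich cells (17 to 8214 reads per 50000, median 3165) and in 1 of the other 12 cluster 4 cells. Klf1 was found in 10 of the 12 and in 2 of the other 12.

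The 48 remaining day 6 cells carried the retinoic acid genes. Crabp1 was found in 42 of them (median 39.5 reads per 50000), against 1 of the 12 globin-rich and 3 of the 12 other cluster 4 cells. Meis1 was in 36 of the 48, Hoxb1 in 25, Pdgfra, a receptor of mesenchyme precursors, in 18 and Hand2, a factor of cardiac and limb mesoderm, in 14. Kdr was found in 10 of these 48 cells as well. Thus Crabp1 was found mostly outside cluster 4, and globin reads mostly in one part of cluster 4. Endothelium reads were highest in the other part, but the remaining 48 cells also held some, with Egfl7 in 27 and Ramp2 in 11.

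**Figure D4:**
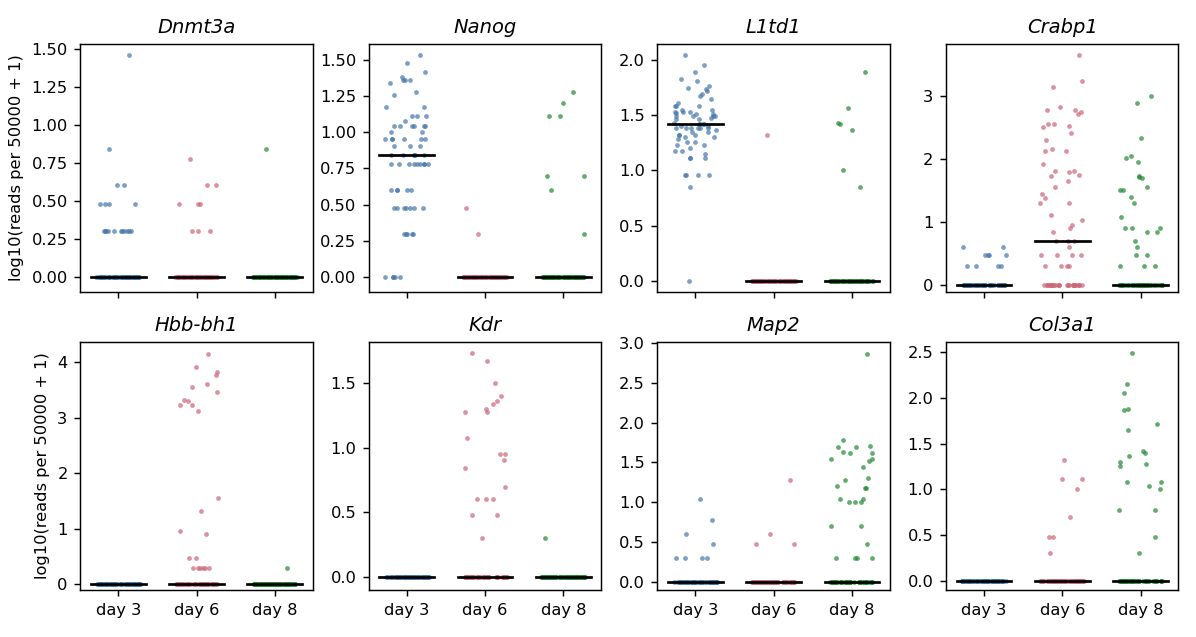
Reads per 50000 of 8 genes in each 3A38 cell at days 3, 6 and 8, as log10 of reads plus 1, with a black bar at the median of each day. Nanog and L1td1 sit high in day 3 cells, Crabp1, Hbb-bh1 and Kdr in subsets of day 6 cells, and Map2 and Col3a1 in subsets of day 8 cells.

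The second comparison asked how day 8 differed from day 6. At day 8 the blood and endothelial genes were lower by size. Neuron genes were higher, mostly in cluster 1. Some fibrillar collagens were higher as well. Most cells that held Col3a1 lay in cluster 5, but most of its reads on the plate came from 1 cell of cluster 1. By size, 3269 genes (13.6%) were higher and 2168 (9%) lower of the same 24083. With scaling by library totals only, 2102 were higher and 4158 lower, so that 33.6% of the calls were higher rather than 60.1%. In edgeR, no gene passed an adjusted p of 0.05 (lowest 0.423), while 1771 genes had an unadjusted p under 0.05 and DESeq2 called 934.

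Neuron genes were higher by size at day 8 in 14 of 16 members and lower in none, with a median of 2.64. With library totals only, 11 were higher and none lower. The list summed to 6404 CPM at day 8 against 243 CPM at day 6, and to 958 CPM in 3B126 at day 8. The plates in doubt had 16.7 CPM (3B77) and 663 CPM (WT). Dcx, which encodes the microtubule protein doublecortin of migrating neurons, was 457 CPM at day 8 against 0.503 CPM at day 6 (19 of 72 against 1 of 72 cells), and all 19 cells lay in the neuron-like cluster. Snap25, a membrane fusion protein of synapses, was 391 against 0.647 CPM. Map2, a dendritic microtubule protein (chr1:66175273-66442583, plus strand), was 1165 CPM at day 8 against 10.0 CPM at day 6, but 1 cell held 80.4% of the day 8 reads. The log2(CPM + 5) difference was 6.28, and 5.83 with the highest cell left out. Its share of cells was 40.3% (29 of 72, 28.9 to 52.5%) at day 8 against 5.56% (4 of 72, 1.53 to 13.6%) at day 6. Tubb3, a neuronal tubulin, was 374 against 79.4 CPM.

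Progenitor genes were higher by size in 8 of 15 members and lower in 1 (median 2.03). Sox11, a factor of immature neurons, was found in 62 of 72 cells at day 8 and 49 at day 6, at 1625 against 115 CPM. Zic1, a factor of the dorsal neural tube, was 110.4 against 19.7 CPM, and 24 of the 41 neuron-like cells held it, against 1 of the 21 mesenchyme-like cells. Pax3 was 348 against 31.9 CPM, with 1 cell holding 54.5% of the day 8 reads.

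The collagen and matrix list was higher by size in 5 of 15 members and lower in 3 (median 0.42). Col3a1, a fibrillar collagen (chr1:45311538-45349706, plus strand), was 464 CPM at day 8 against 9.39 CPM at day 6, with reads in 21 of 72 cells (29.2%, 19 to 41.1%) against 8 of 72 (11.1%, 4.92 to 20.7%). Of the 21 cells, 19 lay in the mesenchyme-like cluster. The highest value, 306 reads per 50000, was in a cell of cluster 1 with no reads of the 16 neuron genes and 310 over the matrix list. That 1 cell held 70.4% of the plate's reads of Col3a1, so the summed level is mostly not that of the mesenchyme-like cells. The log2(CPM + 5) difference was 5.03, and 4.0 with the highest cell left out. Col1a2 was 180.4 against 20.5 CPM. Lum, a collagen-binding proteoglycan, had 26.2 CPM at day 8 in 4 cells and no reads at days 3 and 6. Sparc went the other way, with 47.4 CPM at day 8 against 232 CPM at day 6. Dcx and Col3a1 met in 1 of the 39 day 8 cells that held either. A list of fibroblast markers summed to 683 CPM at day 8 against 61.6 CPM at day 6 (at day 8, 45.8 CPM in 3B126, and 3644 CPM in 3B77 and 865 CPM in WT, the plates in doubt). That list shares Col1a1, Col3a1, Lum, Dcn and Postn with the matrix list, and its part in the mesenchyme levels was not tested.

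All 15 endothelium genes were lower by size at day 8 (median -2.40), as were 10 of 12 blood transcription factors, 2 others being higher, and 9 of 13 red cell genes. Hbb-bh1 was 0.359 CPM at day 8 against 8149 CPM at day 6, with 1 of 72 cells holding a read. Kdr was 0.304 against 61.7 CPM, and Cdh5, Gata1 and Tal1 had no reads after thinning in any of 72 cells (upper bound 4.99%). Crabp1 was 337 against 1818 CPM. Heart and smooth muscle genes were lower in 6 of 13 and higher in none. Core pluripotency genes were higher by size at day 8 in 5 of 10 members and lower in none, against 13.6% higher and 9% lower over all genes. With library totals only, 4 were higher and 1 lower. Nanog or L1td1 was found in 9 of 72 day 8 cells. Nanog was 30.9 CPM at day 8 against 0.599 CPM at day 6, and 1 cell held 73.2% of the day 8 reads. Its log2(CPM + 5) difference was 2.68, 1.69 without the highest cell and 1.2 without cells over 30% mitochondrial reads.

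Mitosis genes were lower by size in 13 of 18 members at day 8 (median -1.53), in 16 with library totals and in 9 after thinning. Cdk1, the mitotic kinase, was found in 21 of 72 cells at day 8 against 55 at day 6, at 50.6 against 209 CPM, and Ube2c, a mitotic ubiquitin enzyme, in 15 against 52 cells. Among the 10 largest differences towards day 6, Srm, the spermidine synthase, was 10.6 against 172 CPM and Mrpl12, a mitochondrial ribosome protein, 14.1 against 192 CPM. A day 8 cell also detected fewer genes (median 2787 against 4506), whose part in these lower shares was not tested.

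Several of the 10 largest differences towards day 8, among genes seen in at least 25% of the cells, were found in both day 8 clusters. Snap25 and Gpm6b, a glycoprotein of neural membranes, were exceptions, with reads in 1 of the 21 mesenchyme-like cells each. Skil, a corepressor of Tgf-beta signalling (chr3:31095058-31122577, plus strand), was 5931 CPM (5906 to 5957) at day 8 against 36.4 CPM (34.6 to 38.3) at day 6, while day 3 stood at 1055 CPM. A cell held 2 to 165 reads per 50000 at day 3 (median 36), 0 to 17 at day 6 (median 0) and 0 to 1201 at day 8 (median 92.5), so day 6 was the low plate. At day 8, 38 of 41 neuron-like and 18 of 21 mesenchyme-like cells held it. Marcks, a membrane-bound actin regulator, was 1381, 151 and 7978 CPM at days 3, 6 and 8. Tmem263, a transmembrane protein, was 392, 26.3 and 3158 CPM, and Mcmbp, a binding partner of the Mcm helicase, was 304, 40.9 and 1793 CPM. The summed level of mitochondrially encoded genes took the same course, with 116108, 31065 and 120462 CPM at days 3, 6 and 8. The part of the mitochondrial share and of gene detection in this pattern was not tested.

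The same genes in the other clones are set beside 3A38. WT and 3B126 were in batch 2 and 3B77 in batch 3, so batch and clone cannot be told apart except between 3A38 and 3A2. No day 8 plate of 3A2 was used here, and 3A38 alone has 3AKO cells at day 8. Skil at day 8 was 5931 CPM in 3A38 against 108.4 CPM in 3B126, 45.2 CPM in 3B77 and 47.4 CPM in WT, the last 2 in doubt here and in the next sentences, while 3A2 at day 3 had 732 CPM. Map2 at day 8 was 1165 CPM in 3A38 against 17.8 CPM in 3B126, 0.603 CPM in 3B77 and 19.9 CPM in WT. Dcx was 457 CPM in 3A38 against 24.7 CPM in 3B126, 0 in 3B77 and 29.3 CPM in WT. Of the 16 neuron genes, 15 were higher at day 8 in 3A38 than in all 3 other sums, and 15 than in 3B126 alone, as levels with no test. The same count against all 3 sums was 9 of 16 for DNA replication genes, 12 of 27 for Hox genes and 0 of 15 for endothelium genes. The share over all genes was not computed, so this count has no baseline here. Crabp1 at day 6 was 1818 CPM in 3A38 against 56.3 CPM in 3A2 and 934 CPM in WT, and the day 8 level was 337 CPM in 3A38 against 6219 CPM in 3B126 and 4351 CPM in WT.

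Blood and endothelial genes were compared in the same way. Hbb-bh1 at day 6 was 8149 CPM in 3A38 against 15.2 CPM in 3A2, 0 in 3B126, 0.0335 CPM in 3B77 and 1562 CPM in WT. The day 8 level was 0.359 CPM in 3A38 against 0 in 3B126, 10652 CPM in 3B77 and 3977 CPM in WT, the last 2 being the plates in doubt. Without them, the day 8 levels of 3A38 and 3B126 were both near 0. Kdr at day 6 was 61.7 CPM in 3A38 against 23.3 CPM in 3A2 and 68 CPM in WT. Nanog at day 6 was 0.599 CPM in 3A38 against 93.0 CPM in 3A2 and 30.3 CPM in WT. Both 3AKO clones thus had unlike levels of these 3 genes at day 6. With 1 plate each, that difference has no replicate check.

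**Figure D5:**
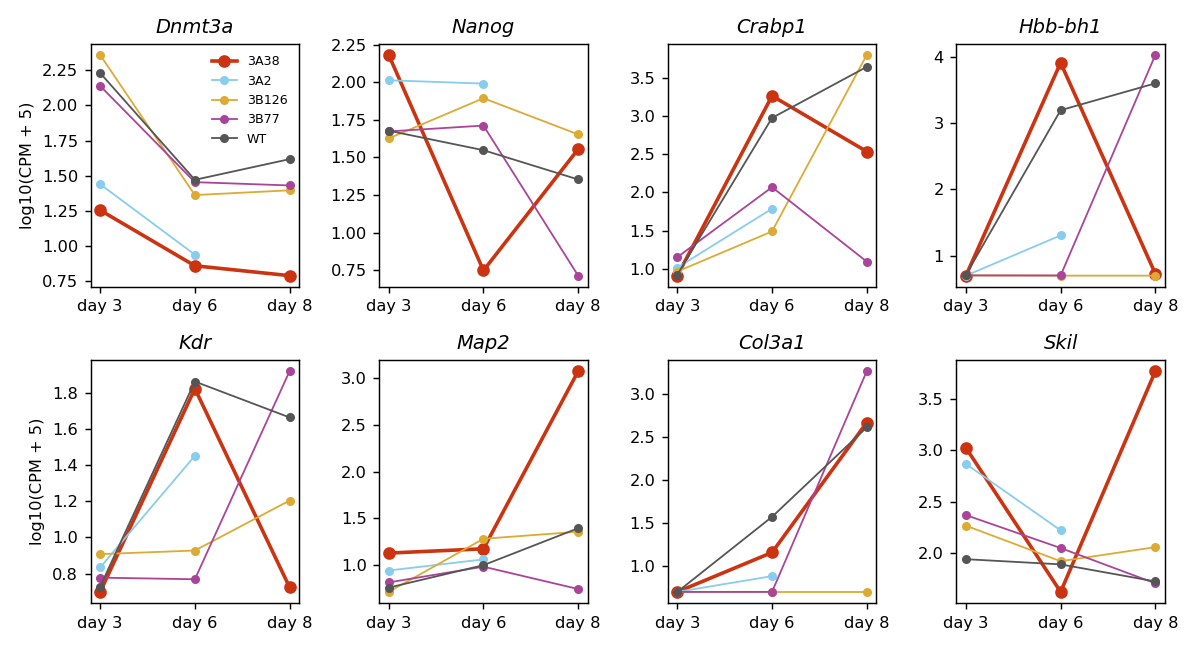
Levels of 8 genes by day in 3A38, 3A2, 3B126, 3B77 and WT, as log10 of CPM plus 5, 1 point per clone and day with no replicates (WT at day 8 joins 2 plates). Hbb-bh1 is high at day 6 in 3A38 and at day 8 in 3B77 and WT, and Skil at day 8 is high in 3A38 alone.

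The step of 3A38 minus the mean step of the other clones was fitted in edgeR, again with 3A38 assumed to vary as they do. Between days 3 and 6 no gene passed (649 with an unadjusted p under 0.05, DESeq2 180). Between days 6 and 8, 1 gene of 24083 passed (0.00415%), with 1890 at an unadjusted p under 0.05 and 854 called by DESeq2. That gene was Plek, which encodes pleckstrin of platelets and leukocytes (chr11:16971206-17052381, minus strand). It was 0.0823, 16.1 and 0.0552 CPM in 3A38 at days 3, 6 and 8, while 3B77 had 170.1 CPM and WT 246 CPM at day 8. The log2 difference of the steps was -18.18 ± 1.97 (SE), with an adjusted p of 0.0277 by edgeR. The adjusted p was over 0.05 without 3A2 (0.0671), 3B77 (0.139) or WT (0.0520). Without the day 8 plates of 3B77 and WT, whose labels are in doubt, the log2 difference was -7.25 and the edgeR adjusted p was 1. At day 6, 5 of 72 cells of 3A38 held Plek, 1 of which had 69.5% of its reads.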

How the data were processed

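The authors sorted single cells, made libraries with a modified Smart-seq2 protocol and deposited raw read counts per gene and cell. Per the study's methods and the submitters' processing notes, reads were trimmed with Trim Galore 0.5.0, aligned to mm10 with STAR 2.7.1a and assigned to exons with featureCounts 1.6.1, leaving out reads with several mapping places. The sources used here do not give the strand setting, so a gene and an overlapping antisense gene cannot be told apart. All 965 cells met the authors' limits of at least 50000 reads, 2000 genes and at most 50% mitochondrial reads. Every cell column matched a sample. Of 36849 genes, 12104 had no reads in at least 1 batch.

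Cells were taken by plate prefix and grouped by the day in their titles. The counts of each clone and day were added (14 sums) and filtered with filterByExpr at a minimum count of 10, which left 24083 genes. Scaling used TMM. Size differences used log2(CPM + 5). The fit used edgeR 4.0.16 (glmQLFit and glmQLFTest) in R 4.3.3, with a mean per day for 3A38 and clone plus day for the others, 5 residual degrees of freedom and Benjamini-Hochberg adjustment at 0.05. DESeq2 1.42.0 was an alternative. Tested on simulated data, the fit recovered changed genes at a small spread and called none of them at a spread like that of these sums, so a lack of calls says little. Cells were clustered with Seurat 5.3.0. Doublets were not called. Not every gene examined is reported here. Genes were named where they had the 10 largest differences in a direction, at least 25% of cells and under 25% of reads in 1 cell, or the largest 4 of a list under the same limits, besides a fixed set of markers and cluster leaders. Genes named outside this rule, among them the day 6 split genes, were chosen after their values were seen. Members and lists were chosen with earlier results of these data known. Alternatives changed scaling, filter, pseudocount, depth, highest cell, mitochondrial limit, clone and clustering settings.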

Additional observations from a re-analysis of the deposited data

Results flagged for a closer look

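Plek, whose product is a signalling protein of platelets and leukocytes, showed a step from day 6 to day 8 in 3A38 that differed from that of the other clones by -18.18 (log2, edgeR, adjusted p = 0.0277). It was noted because the change in 3A38 differed from the change in other clones by a test of the difference itself. Its adjusted p was 0.00584 with DESeq2, 0.0671 without clone 3A2, 0.139 without 3B77, 0.0520 without WT and 0.000872 without 3B126. Without the day 8 plates of 3B77 and WT, which are in doubt, the log2 difference was -7.25 with an edgeR adjusted p of 1. The step was lower in 3A38, with 0.0552 CPM at day 8 against 16.1 CPM at day 6, and higher in 3B77 and WT.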

How the results depend on the processing

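Under the alternatives of size difference, no named gene called by size was called in the other direction. The counts moved most with the pseudocount and the scaling. For day 6 against day 3, a pseudocount of 1 CPM gave 6471 genes in all (3323 higher and 3148 lower) and one of 10 CPM gave 2176 (812 higher), while library totals only gave 2969 higher and 1221 lower. For day 8 against day 6, a pseudocount of 1 CPM gave 8902 genes in all (4281 lower), one of 10 CPM gave 1342 lower, and library totals only gave 2102 higher and 4158 lower. In edgeR, leaving out the filter on low counts gave 11 genes for day 6 against day 3 and 33 for day 8 against day 6, and 1 and 42 for the steps of 3A38 minus those of the other clones. DESeq2 gave 314, 934, 180 and 854 genes in that order. For the last of these steps, cells thinned to 50000 reads gave 5 genes, the fit without the day 8 plates of 3B77 and WT gave 0, and leaving out 1 clone at a time gave 0 to 14. For day 8 against day 6 the range was 0 to 1. The cause was not tested. Without regression in the clustering, 100% of day 3 and of day 6 cells lay in clusters led by their day, and with thinned cells 98.6% of day 3 cells did, against 94.3% and 98.6% of day 3 and day 6 cells as reported. With thinned cells the share was 97.2% at day 6. For day 8 it was 86.1% as reported, 83.3% with thinned cells and 80.6% with 15 principal components, where clusters 1 and 5 merged. No paired analysis was possible because each day of 3A38 is 1 plate and cell numbers pair nothing. One plate a day, PCR copies counted as reads and few detected genes at day 8 limit what these levels can show.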

Other observations

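The genes of this paragraph were chosen after their values were seen. Among the 41 neuron-like day 8 cells of 3A38, Tfap2b, a factor of neural crest and some spinal interneurons, was found in 12, Pou4f1, a factor of sensory neurons, in 9, the LIM homeodomain factor Lhx1 in 8, and its relative Lhx5 and Slc17a6, a vesicular transporter of glutamate, in 7 each. Gad2, an enzyme of inhibitory neurons, was found in 1 of them, and Slc17a6 and Gad2 met in no day 8 cell. None of the 21 mesenchyme-like cells held Tfap2b, Pou4f1, Lhx1, Lhx5 or Slc17a6. Those cells held Pdgfra in 13, Hand2 in 10, and the mesenchyme factors Twist1 and Prrx1 in 9 each. Dcx was found in 10 of the 12 day 8 cells with Tfap2b. Of the 41 cells, 26 held more neuron-list reads than any day 3 cell, and they included 10 of the 12 with Tfap2b, 7 of the 9 with Pou4f1 and 7 of the 7 with Slc17a6.

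Over all genes, 6.07% were higher and 7.78% lower by size at day 6, and 13.6% higher and 9% lower at day 8. Germline genes known to be silenced by methylation were lower by size at day 6 in 6 of 20 members, with none higher, and at day 8 in 1, with 6 higher. Without the highest cell of each gene the day 8 number was 2 higher and none lower. Zfp42, among the members lower at day 6 and higher at day 8, is also in the list of naive pluripotency genes. Dazl, an RNA-binding protein of germ cells, was 18.5, 0 and 9.44 CPM at days 3, 6 and 8, and 1 of the 3 day 8 cells with reads held 77.2% of them. Imprinted genes were higher in 5 and lower in 5 of 25 members at day 6 (10 and 4 with library totals), and higher in 11 and lower in 2 at day 8 (7 and 5 with library totals). Impact, a paternally expressed regulator of translation, was 1976, 202 and 1727 CPM at the 3 days. Igf2, an imprinted growth factor, was 0.0274, 4.89 and 2.62 CPM. Ldha, the lactate dehydrogenase of glycolysis, was 482, 1389.6 and 519.9 CPM, and 6 of 15 genes of the hypoxia and glycolysis list were higher at day 6 with none lower.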
